A study of Homo sapiens with 5 samples.

Results

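The 36 genes described here encode the integrin subunits and the cytoplasmic proteins of focal adhesions, the sites at which cells hold on to the extracellular matrix. They were taken from a list of symbols and matched to the deposited table by Entrez identifier, and all 36 were found among its 23459 genes. 13 of them encode receptors (the integrin subunits) and 23 encode adaptors. All 36 also passed the filter on low counts, which kept 13616 genes.

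Sequencing of 3′ ends measured messenger RNA in SAM derivatives of MCF10A, an immortalised human mammary epithelial cell line. SAM cells carry dead Cas9 fused to the activator VP64 (dCas9-VP64) and the fusion MCP-p65-HSF1, were picked as single clones, and were grown with 5% horse serum, insulin, hydrocortisone, cholera toxin and EGF in both groups. Cells with a non-targeting guide as control (NTC) gave 3 libraries, and 2 were made from cells with the guide sgJUN#1, which brings the activators to the JUN promoter to raise JUN. The study describes its replicates as biological, with fewer for this comparison than the NTC libraries listed, and the labels do not say whether both groups came from the same clone.

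Integrins are pairs of an alpha and a beta subunit that bind collagen, laminin, fibronectin and other matrix proteins outside the cell. Inside, the tail of the beta subunit binds talins and kindlins, which recruit the complex of ILK, PINCH and parvin, the kinases FAK and SRC with their scaffolds, tensins, and the vinculin and LIM proteins that reach the actin cytoskeleton. The pair of ITGA6 and ITGB4 is different, since it anchors epithelial cells through keratin filaments in hemidesmosomes. JUN is a subunit of AP-1, a transcription factor that binds the letters TGANTCA, and the CRE letters TGACGTCA are a related element bound by some AP-1 and ATF pairs. GGAATG is the core bound by TEAD factors, the DNA-binding partners of the co-activator YAP, which the study set against JUN.

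Because the guide acts through a transcription factor, the stretch of 250 bases before the transcription start was searched for these letters on both strands. The sequences are those of RefSeq on GRCh38.p14, which held an entry for 28 of the 36 genes. ITGB1, ITGA1 and ITGB8 are shown because they were among the genes with the smallest p-values described below. TRIP6 was chosen after its sequence was seen, because it held all of the letters searched. All of them were also found at LPP, which is not printed. Capitals mark the matches, and each sequence is written 5′ to 3′ on the strand of the gene.
ITGB1 (chr10:32958231-32958480, minus strand): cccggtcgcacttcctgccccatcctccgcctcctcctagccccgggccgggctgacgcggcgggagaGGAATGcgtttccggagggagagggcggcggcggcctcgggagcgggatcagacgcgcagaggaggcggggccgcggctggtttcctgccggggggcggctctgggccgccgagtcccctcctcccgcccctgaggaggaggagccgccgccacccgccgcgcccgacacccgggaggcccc
ITGA1 (chr5:52787666-52787915, plus strand): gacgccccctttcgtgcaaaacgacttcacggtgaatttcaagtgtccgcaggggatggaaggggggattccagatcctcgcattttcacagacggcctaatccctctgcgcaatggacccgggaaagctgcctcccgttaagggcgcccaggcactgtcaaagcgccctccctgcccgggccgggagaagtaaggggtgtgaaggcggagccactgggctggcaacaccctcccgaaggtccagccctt
ITGB8 (chr7:20330650-20330899, plus strand): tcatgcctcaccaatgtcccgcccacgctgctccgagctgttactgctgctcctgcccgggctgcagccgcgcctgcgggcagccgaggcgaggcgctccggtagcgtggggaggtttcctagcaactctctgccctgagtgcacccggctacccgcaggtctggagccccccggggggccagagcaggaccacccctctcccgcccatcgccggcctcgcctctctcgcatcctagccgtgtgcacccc
TRIP6 (chr7:100867137-100867386, plus strand): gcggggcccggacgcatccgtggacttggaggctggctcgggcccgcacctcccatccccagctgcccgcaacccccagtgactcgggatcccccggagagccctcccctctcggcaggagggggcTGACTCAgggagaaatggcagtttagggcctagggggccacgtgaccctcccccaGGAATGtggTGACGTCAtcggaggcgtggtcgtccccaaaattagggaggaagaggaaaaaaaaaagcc

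The ITGB1 stretch shown held GGAATG 182 bases before the start, and those of ITGA1 and ITGB8 held none of the letters searched. Another ITGB1 entry (chr10:32935559-32935808, minus strand) and the FERMT2 entry, which are not printed, held none of the letters either. In TRIP6 the AP-1 letters TGACTCA stood 124 bases, GGAATG 69 bases and TGACGTCA 60 bases before the start. Over the members, the AP-1 letters were found at BCAR1, LIMS1, LPP and TRIP6, in 6 of 54 promoter entries (11.1%) against 6.57% of all 35116 entries. The CRE letters were found at LPP and TRIP6 (1.65% of all entries hold them). GGAATG was found in 11 of 54 entries (20.4%) of 9 genes, which were ITGA10, ITGA5, ITGB1, LPP, PXN, TES, TNS1, TRIP6 and VCL, against 11.9% of all entries. The 4 genes with AP-1 letters had log2 fold changes between -0.20 (LPP) and 0.11 (TRIP6) in the comparison below. A match describes the letters in the window and is not a measured binding site.

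JUN itself was examined first, since it is the gene that the guide targets. Its counts were 91, 89 and 42 in NTC replicates 1 to 3 and 831 and 742 in sgJUN#1 replicates 1 and 2, so every sgJUN#1 library lay above every NTC library. The log2 fold change was 3.25 (SE 0.484), with an adjusted p-value of 0.0733 in edgeR's quasi-likelihood test, above the threshold of 0.05. 13 alternative fits were also made. With the replicate number as a block, log2 fold changes lay close to those without NTC replicate 3, which is alone in its block. JUN passed the threshold in 6 of the 13. These were the fits without NTC replicate 2 or NTC replicate 3 (edgeR adjusted p-values 0.0144 and 0.00121), with the replicate number as a block (log2 fold change 2.82, 1.15e-04) and with thinned counts (0.0257), limma-voom (0.0342) and DESeq2 (7.36e-12). Libraries held between 2455627 and 4988062 counts, and the 3 counts that a count of 0 cannot exclude amounted to 0.619 to 1.22 CPM (counts-per-million, scaled by TMM). These limits cover counting error only. The 10 epithelial markers summed to between 984 and 1512 CPM in NTC and between 891 and 2154 CPM in sgJUN#1, with none at 0 in all libraries. Of the 10, 6 had log2 fold changes above 0 and 4 below, and 0 passed the edgeR threshold. Those without overlap between the groups were EPCAM (log2 fold change 2.44), KRT17 (1.80) and KRT14 (-1.16). EPCAM and KRT17 were above all NTC libraries and KRT14 was below, where 12.2% and 12.8% of all tested genes were. KRT17 had 0, 11 and 27 counts in NTC and 79 and 22 in sgJUN#1. KRT14 was low, with 4 to 13 counts in a library. The basal markers KRT5 and TP63 overlapped, at -0.40 and -0.11. The 6 fibroblast markers summed to 25.9 to 92.3 CPM in NTC and 31.2 to 56.2 CPM in sgJUN#1, most of it DCN. The 3 endothelial markers summed to at most 10.99 CPM and the 3 leukocyte markers to between 2.04 and 25.95 CPM, with the T cell marker CD3E at 0 in all libraries. The part of these markers in the results was not tested.

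To ask whether raised JUN was accompanied by other levels of integrin and focal adhesion mRNA, the 36 genes were compared between sgJUN#1 and NTC within a fit over all tested genes. None of the 36 passed the threshold (edgeR's quasi-likelihood test, Benjamini-Hochberg adjusted p-value under 0.05 over all genes), where 28 of 13616 genes, or 0.206%, did. Without adjustment, p-values under 0.05 were found for 5 members, ITGB1, ITGB4, ITGA1, FERMT2 and ITGB8, against 8.38% of all tested genes. The limma-voom and DESeq2 tests also called 0 of the 36. In bulk RNA, fewer cells of a type and less RNA per cell cannot be told apart.

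The receptors were spread more widely than the adaptors. The log2 fold changes of the 13 receptors (sgJUN#1 over NTC) ran from -2.55 to 0.80, with their median at 0.17, and 8 were above 0 and 5 below. Those of the 23 adaptors ran from -0.61 to 0.29, with their median at -0.01, and 10 were above 0 and 13 below. Over all tested genes the median was -0.0082. 2 of the 13 receptors (15.4%) and 0 of the 23 adaptors had a log2 fold change beyond 1 in size, against 4.94% of all tested genes. The receptors were ITGB4 and ITGB8, which had -1.68 and -0.46 without NTC replicate 3. The difference between the lists was not tested. The median of the receptors turned to -0.04 without NTC replicate 1.

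**Figure D1:**
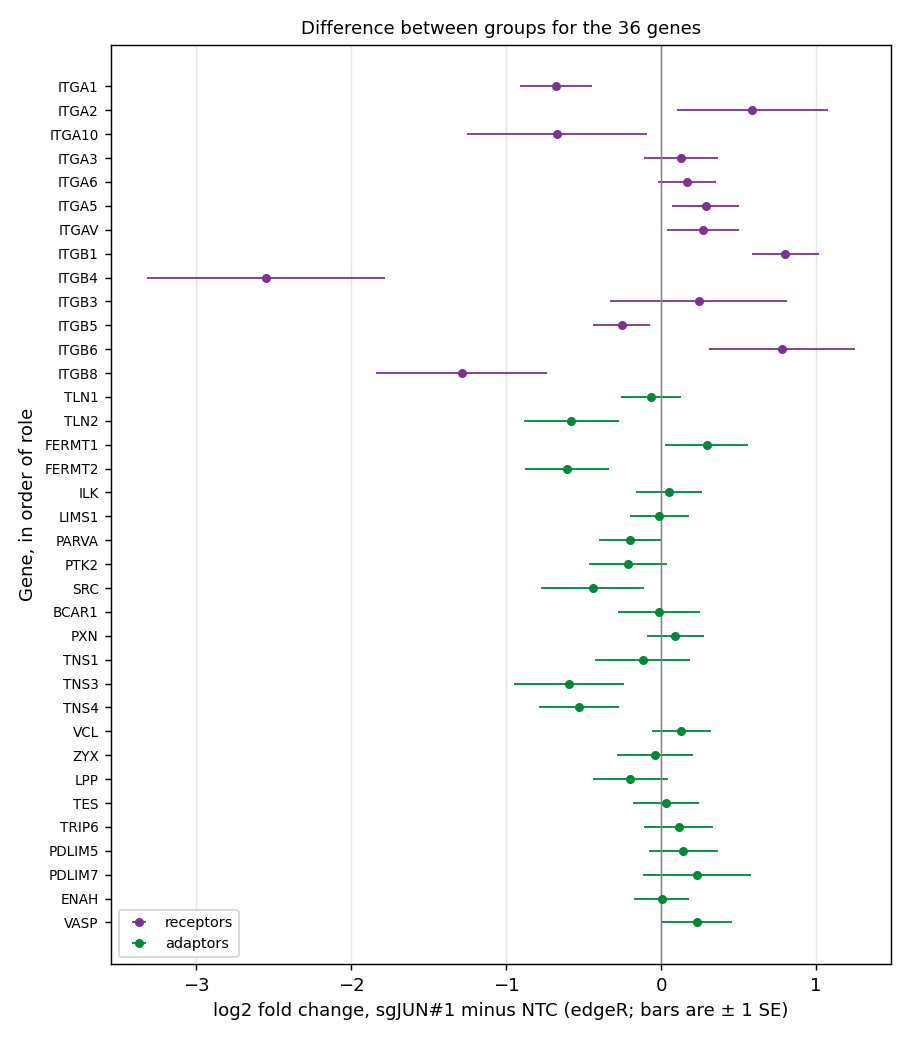
Log2 fold changes of the 36 genes, sgJUN#1 over NTC, on the horizontal axis, with genes ordered by role on the vertical axis. Points are edgeR estimates and bars are 1 SE to each side. Receptors are purple and adaptors green. ITGB4 (-2.55) and ITGB8 (-1.29) lie farthest to the left and ITGB1 (0.80) farthest to the right, and the adaptors lie between -0.61 and 0.29.

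Every sgJUN#1 library exceeded every NTC library for 2 members, ITGB1 and ITGA6, where 12.2% of all tested genes did so. They lay below all NTC libraries for 7 members, ITGA1, ITGB4, ITGB5, ITGB8, TLN2, FERMT2 and TNS4, where 12.8% of all tested genes did so. The remaining 27 members overlapped between the groups.

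ITGB1 encodes the beta subunit shared by most integrins of epithelial cells and was the most abundant receptor mRNA. The gene lies on chromosome 10 from 33176201 to 33294720 (GRCh37, as for all gene positions given here). It stood at 313, 355 and 270.4 CPM in NTC replicates 1 to 3 and at 452 and 639 CPM in sgJUN#1, resting on 872 to 2189 counts in a library. Both sgJUN#1 libraries were above the highest NTC library, and they also differed from each other by 1.41-fold. The mean was 313 ± 42.3 CPM (SD, n = 3) in NTC and 545 ± 132 CPM (SD, n = 2) in sgJUN#1. The log2 fold change was 0.80 (SE 0.217), and the adjusted p-value from edgeR was 0.286, the smallest of the 36. Over the alternatives the log2 fold change of ITGB1 ran from 0.54 without sgJUN#1 replicate 2 to 1.03 without sgJUN#1 replicate 1 and passed the threshold in 0 of 13 alternatives, with adjusted p-values between 0.119 and 0.962.

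ITGB4 encodes the beta subunit of the hemidesmosomal laminin receptor and lies on chromosome 17 from 73717408 to 73753899. It stood at 119, 47.6 and 292 CPM in NTC against 26.4 and 26.1 CPM in sgJUN#1. The sgJUN#1 libraries were almost equal and lay below all NTC libraries, which spanned 6.14-fold among themselves. The log2 fold change was -2.55 (SE 0.770), and the adjusted p-value from edgeR was 0.459. Without NTC replicate 2 it was -2.97, and ITGB4 passed the threshold (edgeR adjusted p-value 0.0249), while without NTC replicate 3 the log2 fold change was -1.68 (0.232). GALK1, a galactose kinase gene on the opposite strand, covers the 3′ end of ITGB4 and held up to 39.7% of the ITGB4 count in a library, and the handling of strand in the counting was not stated. The GALK1 counts were 19, 20 and 31 in NTC and 44 and 29 in sgJUN#1.

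ITGA6, the alpha partner of ITGB4, had 84.7, 81.4 and 80.7 CPM in NTC and 97.0 and 87.7 CPM in sgJUN#1. It did not overlap between groups either, in the opposite direction to ITGB4 and by a small amount, with a log2 fold change of 0.17 (SE 0.185, adjusted p-value 0.859 with edgeR). Within a library the ratio of ITGB4 to ITGA6 counts was 1.40, 0.585 and 3.62 in NTC and 0.272 and 0.298 in sgJUN#1. This ratio and the others given below were chosen after the values were seen and were not tested.

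The collagen receptors take ITGA1, ITGA2 or ITGA10 together with ITGB1. ITGA1 (chromosome 5, 52083750 to 52255039) stood at 45.9, 62.3 and 64.8 CPM in NTC against 38.6 and 33.3 CPM in sgJUN#1, where both libraries were below all NTC libraries. Its log2 fold change was -0.68 (SE 0.233, adjusted p-value 0.459 with edgeR), and ran from -0.82 to -0.56 over the alternatives. PELO, a gene of ribosome rescue, lies within ITGA1 on the same strand and held up to 54.0% of the ITGA1 count in a library, so that reads of the pair could be split or shared. ITGA2 stood at 39.9, 100.1 and 43.7 CPM in NTC against 128 and 52.6 CPM in sgJUN#1. Here 1 library in each group was high, the groups overlapped, and the log2 fold change of 0.59 (SE 0.488) turned to -0.21 without sgJUN#1 replicate 1. ITGA10, a subunit best known from cartilage, was low in every library, with 6 to 24 counts.

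ITGA3 is the alpha subunit of a laminin receptor that epithelial cells use outside hemidesmosomes. It averaged 70.1 ± 16.2 CPM (SD, n = 3) in NTC against 76.5 ± 7.73 CPM (SD, n = 2) in sgJUN#1, a difference smaller than the spread between the NTC libraries. ITGA5, the alpha subunit of the classical fibronectin receptor, averaged 42.7 ± 6.27 and 51.9 ± 5.11 CPM in overlapping groups, and its log2 fold change was 0.29 (SE 0.217).

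ITGAV is the alpha subunit that pairs with ITGB3, ITGB5, ITGB6 and ITGB8, which recognise the RGD motif in vitronectin, fibronectin and latent TGF-beta. It stood at 68.2, 109 and 79.2 CPM in NTC against 99.7 and 106 CPM in sgJUN#1, with overlapping groups and a log2 fold change of 0.27 (SE 0.232). Among ITGB3, ITGB5, ITGB6 and ITGB8, ITGB5 was the most abundant, at 163, 148 and 149 CPM in NTC and 131 and 126 CPM in sgJUN#1. Both sgJUN#1 libraries were below all NTC libraries, but the log2 fold change was -0.26 (SE 0.184, adjusted p-value 0.759 with edgeR). ITGB8, whose pair with ITGAV is known for releasing TGF-beta from its latent form, lies on chromosome 7 from 20370325 to 20455377. It stood at 39.6, 39.5 and 129 CPM in NTC against 29.7 and 27.5 CPM in sgJUN#1. NTC replicate 3 was more than 3 times as high as either of the other NTC libraries. The log2 fold change of -1.29 (SE 0.549, adjusted p-value 0.594 with edgeR) was -0.46 without NTC replicate 3. ITGB3 and ITGB6 were low, at 1.37 to 6.92 CPM and 2.48 to 10.7 CPM over all libraries, with overlapping groups and log2 fold changes of 0.24 (SE 0.571) and 0.78 (SE 0.472).

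**Figure D2:**
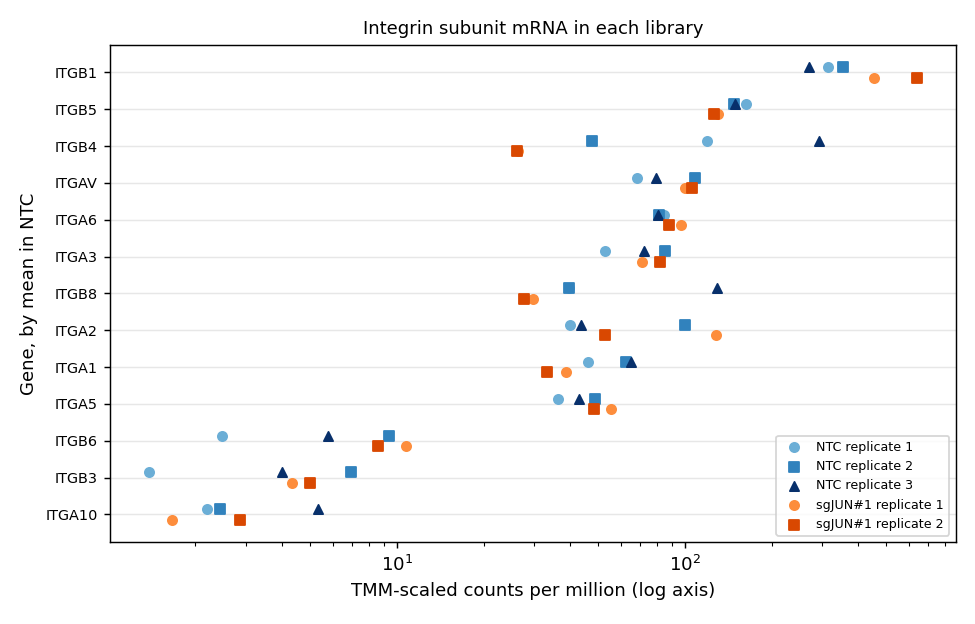
TMM-scaled CPM of the 13 integrin subunits on a log axis (horizontal), with genes ordered by their NTC mean (vertical) and 1 point for each library. NTC libraries are blue and sgJUN#1 libraries orange. Both sgJUN#1 points lie to the right of all NTC points for ITGB1 and ITGA6 and to the left for ITGB4, ITGB5, ITGB8 and ITGA1.

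Since each receptor needs an alpha and a beta chain, the counts were also expressed as shares of all alpha or all beta counts within a library. 1153 to 2382 alpha counts and 1489 to 3835 beta counts were available in a library. The counts of 3′ reads are not divided by transcript length, since a transcript gives reads from its 3′ end alone. ITGB1 made up 49.1%, 58.6% and 31.8% of beta counts in NTC and 69.1% and 76.8% in sgJUN#1. ITGB4 made up 18.6%, 7.86% and 34.4% in NTC and 4.04% and 3.14% in sgJUN#1. Thus the beta share was led by ITGB1 in every library but NTC replicate 3, in which ITGB4 was slightly ahead. On the alpha side, ITGA1 made up 13.9%, 12.7% and 16.7% in NTC and 7.85% and 8.07% in sgJUN#1. The shares of 5 of the 13 subunits did not overlap between the groups, which were ITGA1, ITGA5, ITGB1, ITGB4 and ITGB8. No such count exists over all genes to set beside it. Shares of the same family depend on each other, since a higher share of ITGB1 lowers those of the other beta subunits. An exact permutation test (two-sided) gave p = 0.1 for ITGA1, 0.2 for ITGA5, ITGB1 and ITGB4, and 0.3 for ITGB8. No value below 0.1 is possible with 3 and 2 libraries, so that no share could reach 0.05. Adjusted over the 13 subunits, the exact permutation p-values were all at least 0.650.

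**Figure D3:**
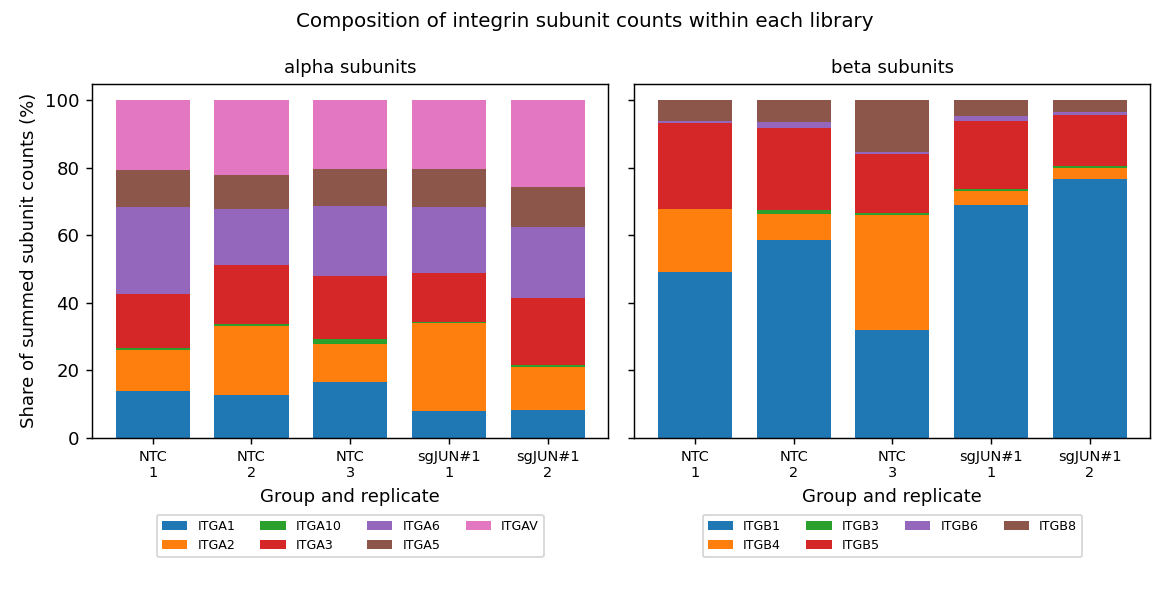
Shares of alpha (left) and beta (right) subunit counts, in percent of their sum within each library (vertical axis), with 1 bar for each of the 5 libraries (horizontal axis). ITGB1 takes 69.1% and 76.8% of beta counts in sgJUN#1 against 31.8% to 58.6% in NTC, and ITGA1 takes 7.85% and 8.07% of alpha counts against 12.7% to 16.7%.

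Summed over the 13 receptors the groups overlapped, at 968 to 1240 CPM in NTC and 1145 to 1245 CPM in sgJUN#1. The 23 adaptors summed to 2793 to 3235 CPM in NTC and 2835 to 2979 CPM in sgJUN#1, where the groups overlapped too.

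Among the adaptors, the talins (TLN1, TLN2) and kindlins (FERMT1, FERMT2) bind the beta tail directly and switch integrins to their active form. FERMT2, which encodes kindlin-2 (chromosome 14, 53323986 to 53419153), stood at 74.3, 87.9 and 135 CPM in NTC against 68.1 and 61.9 CPM in sgJUN#1. Both sgJUN#1 libraries were below all NTC libraries, and NTC replicate 3 was the highest. The log2 fold change of -0.61 (SE 0.270) had the smallest p-value of the adaptors, adjusted to 0.594 with edgeR, and was -0.31 without NTC replicate 3. FERMT1, which encodes the epithelial paralogue kindlin-1, averaged 54.8 ± 14.3 CPM (SD, n = 3) in NTC against 66.8 ± 14.5 CPM (SD, n = 2) in sgJUN#1. The ratio of FERMT2 to FERMT1 counts was 1.10, 1.52 and 3.44 in NTC and 0.885 and 1.10 in sgJUN#1. The highest sgJUN#1 ratio and the lowest NTC ratio were almost the same.

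TLN1, the talin found in most cells, was among the steadiest genes of the list, with 95.7 to 105 CPM in NTC and 86.5 and 107 CPM in sgJUN#1. TLN2 was lower throughout, at 21.45, 21.2 and 37.04 CPM in NTC and 17.3 and 18.6 CPM in sgJUN#1. Its groups did not overlap, with a log2 fold change of -0.58 (SE 0.308, adjusted p-value 0.669 with edgeR) that shrank to -0.25 without NTC replicate 3.

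**Figure D4:**
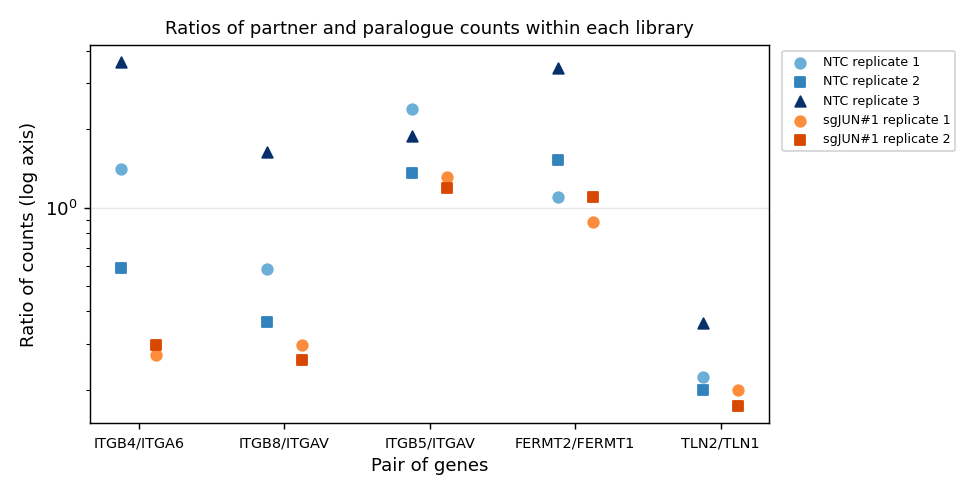
Ratios of counts within each library on a log axis (vertical) for 5 pairs of partner or paralogue genes (horizontal), with 1 point for each library. NTC libraries are blue and sgJUN#1 libraries orange. The ITGB4 to ITGA6 ratio spans 0.585 to 3.62 in NTC and lies at 0.272 and 0.298 in sgJUN#1, and the FERMT2 to FERMT1 ratio lies between 1.10 and 3.44 in NTC and at 0.885 and 1.10 in sgJUN#1.

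The complex of ILK, LIMS1 (PINCH-1) and PARVA, which links kindlin-bound integrins to actin, showed little difference. ILK averaged 37.9 ± 3.39 CPM (SD, n = 3) in NTC against 39.15 ± 4.77 CPM (SD, n = 2) in sgJUN#1, LIMS1 67.7 ± 5.63 and 67.2 ± 1.62 CPM, and PARVA 106 ± 6.09 and 92.5 ± 17.9 CPM. The log2 fold changes were 0.05, -0.01 and -0.20, and those of ILK and LIMS1 changed sign under some alternatives. TAF10, a gene of the transcription machinery, overlaps the 3′ end of ILK on the opposite strand and held up to 185% of the ILK count, so that the ILK level is uncertain where strand was not used.

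PTK2, which encodes the focal adhesion kinase FAK, averaged 218 ± 59.5 CPM (SD, n = 3) in NTC against 188 ± 17.1 CPM (SD, n = 2) in sgJUN#1. SRC, the kinase that FAK recruits, averaged 16.4 ± 5.72 CPM (SD, n = 3) in NTC against 12.2 ± 0.390 CPM (SD, n = 2) in sgJUN#1, and BCAR1, the scaffold p130Cas that both phosphorylate, averaged 15.3 CPM in both groups. PXN, which encodes the scaffold paxillin, was among the most abundant adaptors at 254, 249 and 273 CPM in NTC and 293 and 257 CPM in sgJUN#1. In all 4 genes the groups overlapped and the log2 fold changes lay between -0.44 (SRC) and 0.09 (PXN). The antisense gene PXN-AS1 covers the 3′ end of PXN and held up to 81.1% of its count.

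The tensins bind beta tails and actin and had log2 fold changes below 0 in all 3 members. TNS4 (chromosome 17, 38632080 to 38657875), a short tensin without the actin-binding part, stood at 132, 149 and 213 CPM in NTC against 132 and 95.9 CPM in sgJUN#1. Its groups did not overlap, by a margin of less than 1 CPM between NTC replicate 1 and sgJUN#1 replicate 1, and the log2 fold change was -0.53 (SE 0.258, adjusted p-value 0.640 with edgeR). TNS3 stood at 92.1, 80.6 and 173 CPM in NTC against 59.7 and 94.5 CPM in sgJUN#1, where the groups overlapped. Its log2 fold change of -0.59 (SE 0.354) was -0.18 without NTC replicate 3. TNS1 was low, at 8.14 to 12.1 CPM over all libraries, and had a log2 fold change of -0.12 (SE 0.309).

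The remaining adaptors link adhesions to actin filaments, and none of them separated the groups. ENAH, an Ena/VASP protein that promotes growth of actin filaments, was the most abundant adaptor mRNA, with 739, 670.3 and 679 CPM in NTC and 688 and 707 CPM in sgJUN#1. Its means of 696 ± 37.1 CPM (SD, n = 3) and 697 ± 13.8 CPM (SD, n = 2) differed by far less than the spread between libraries. VASP, of the same family, averaged 51.1 ± 9.55 and 59.7 ± 8.06 CPM. PDLIM5, a PDZ and LIM protein of actin bundles, stood at 307, 448 and 299 CPM in NTC against 386 and 390.0 CPM in sgJUN#1, inside the NTC range. LPP, a zyxin relative, stood at 213, 276 and 321 CPM in NTC against 195 and 277 CPM in sgJUN#1. Both genes thus varied more within NTC than between the groups.

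VCL, which encodes vinculin, the link between talin and actin, averaged 174 ± 13.3 CPM (SD, n = 3) in NTC against 191 ± 21.6 CPM (SD, n = 2) in sgJUN#1. ZYX, TES, TRIP6 and PDLIM7, LIM proteins of adhesions and stress fibres, had log2 fold changes from -0.04 to 0.23, each smaller than its SE. ZYX levels were close together in sgJUN#1, at 37.1 and 37.2 CPM, within the NTC range of 28.6 to 43.3 CPM. AP3M1 and EPHA1 overlap the 3′ ends of VCL and ZYX on the opposite strand, with up to 27.8% and 8.89% of their counts.

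**Figure D5:**
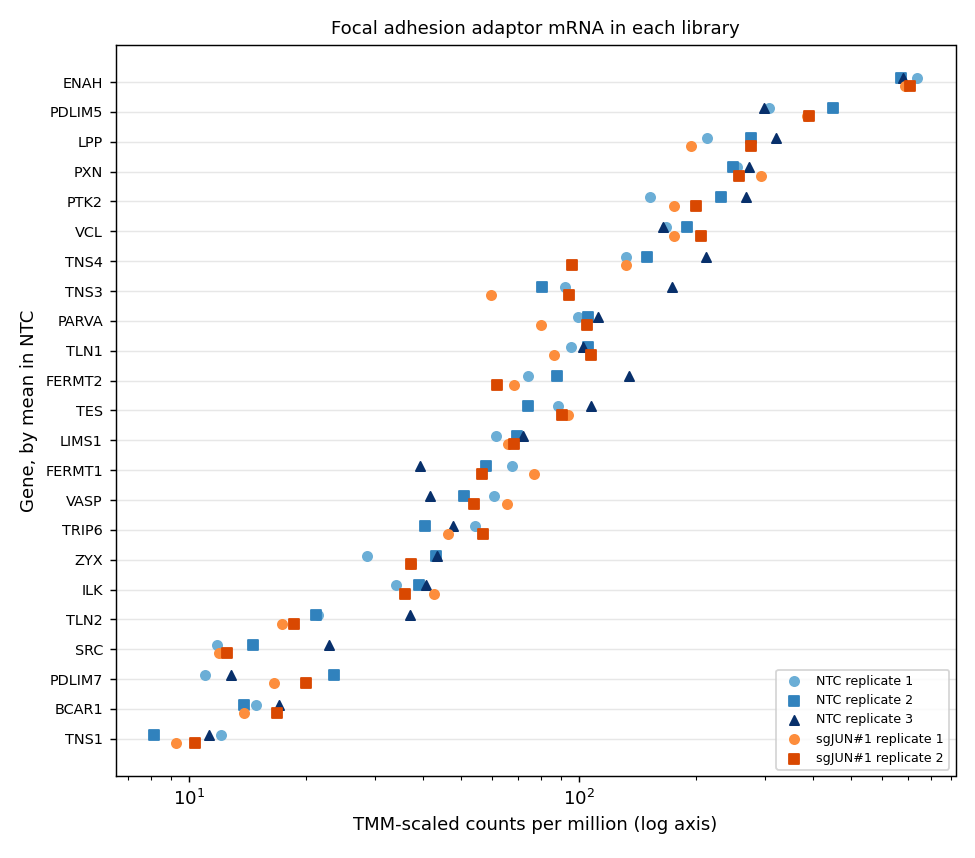
TMM-scaled CPM of the 23 adaptors on a log axis (horizontal), with genes ordered by their NTC mean (vertical) and 1 point for each library. NTC libraries are blue and sgJUN#1 libraries orange. Both sgJUN#1 points lie to the left of all NTC points for FERMT2, TLN2 and TNS4, and NTC replicate 3 (triangles) is the highest library for 12 of the 23 genes.

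The spread among the NTC libraries differed between members. The coefficient of variation in NTC was 82.3% for ITGB4 and 74.5% for ITGB8, against 2.59% for ITGA6, 4.85% for PXN and 4.94% for TLN1. Its median was 24.5% over the receptors, 19.9% over the adaptors and 20.8% over all tested genes. NTC replicate 3 was the highest of the 5 libraries for 16 of the 36 members (44.4%), against 29.8% of all tested genes. For the adaptors this was 12 of 23 (52.2%). The same library was the lowest for 6 of the 36 members (16.7%), against 27.5% of all tested genes. Over all tested genes, both shares were the largest of any library. The fibroblast marker DCN stood at 87.8 CPM in that library against 22.8 and 26.5 CPM in the other NTC libraries, and the monocyte marker CD14 at 23.7 CPM against 7.98 and 1.63 CPM. The remaining fibroblast markers were low in NTC replicate 3. COL1A2 and COL3A1 were at 0 there, and COL1A1, PDGFRB and LUM at 0.887, 1.55 and 1.996 CPM. The part of these markers in the levels of the members was not tested. Without NTC replicate 3, ITGB4, ITGB8, FERMT2, TLN2, TNS4 and TNS3 had log2 fold changes of -1.68, -0.46, -0.31, -0.25, -0.30 and -0.18, closer to 0 than with all libraries. ITGB1 and ITGA1 were less affected, at 0.71 and -0.57.

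Of 85 other adhesion genes, 66 were tested and 1 passed the edgeR threshold, against 0.206% of all tested genes. The 85 genes were listed by function, with earlier results of these data known. An unadjusted p-value under 0.05 was found for 11 of the 66, against 8.38% of all tested genes. The gene that fell was THBS1, which encodes the matrix protein thrombospondin-1, a ligand of several integrins. THBS1 mRNA was also reported by the study to fall with JUN expressed from cDNA. THBS1 belongs to a set of YAP target genes that the study used. It stood at 223, 280.0 and 179 CPM in NTC against 23.3 and 26.5 CPM in sgJUN#1, which is a log2 fold change of -3.19 (SE 0.267, adjusted p-value 0.00112 with edgeR). It was 1 of 11 tested ligands, of which 5 had log2 fold changes above 0 and 6 below. LAMA5, a laminin alpha chain, was second in that list by p-value, at 119, 93.2 and 231 CPM in NTC and 63.4 and 66.9 CPM in sgJUN#1. Its log2 fold change was -1.19 (SE 0.364), and the adjusted p-value from edgeR was 0.376.

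Of 13 other integrin subunits, 5 had enough counts to be tested and 0 passed. ITGB2, the beta subunit of leukocyte integrins, stood at 49.8, 52.1 and 82.5 CPM in NTC against 23.3 and 35.1 CPM in sgJUN#1. Its log2 fold change was -1.09 (SE 0.300, adjusted p-value 0.294 with edgeR), and it passed the threshold without a filter on low counts (0.0452). Of the leukocyte markers, PTPRC was at or below 2.22 CPM in every library, highest in NTC replicate 3, and CD3E was at 0. CD14 stood at 7.98, 1.63 and 23.7 CPM in NTC against 6.19 and 4.29 CPM in sgJUN#1. The part of leukocyte RNA in the ITGB2 level was not tested. ITGA4, which pairs with ITGB1 to bind fibronectin and VCAM1, stood at 6.88 to 8.14 CPM in NTC against 4.13 and 3.58 CPM in sgJUN#1 (log2 fold change -0.97, edgeR adjusted p-value 0.500).

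Of 51 other adaptors, 44 were tested and 0 passed, with 17 log2 fold changes above 0 and 27 below. The 2 with the smallest p-values were relatives of members. TNS2, the fourth tensin, stood at 19.5, 19.9 and 23.7 CPM in NTC against 6.81 and 12.9 CPM in sgJUN#1 (log2 fold change -1.14, SE 0.327, edgeR adjusted p-value 0.318). PTK2B, which encodes the FAK relative PYK2, stood at 87.7, 100.5 and 126 CPM in NTC against 68.5 and 48.3 CPM in sgJUN#1 (log2 fold change -0.84, SE 0.245, edgeR adjusted p-value 0.341). Of the 7 partners of ITGB4 in hemidesmosomes and among the tetraspanins, 6 were tested, 3 in each direction, and 0 passed. COL17A1, a hemidesmosomal collagen, had the smallest p-value of these, with a log2 fold change of 0.81 (SE 0.488, adjusted p-value 0.709 with edgeR), and the tetraspanin CD9 followed with 0.25 (SE 0.301).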

How the data were processed

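RNA from 3 NTC and 2 sgJUN#1 samples of MCF10A SAM cells was extracted on columns and sequenced with the QuantSeq 3′ mRNA-Seq kit (forward version). According to the processing notes of the submitters, cutadapt 4.2 and Bowtie2 2.3.5.1 were used with hg19. The methods of the study name an earlier Bowtie2 version, run at its defaults, under which a read is reported at 1 location, and counting in R with countOverlaps. The authors deposited raw counts per gene, which were not normalised. The gene annotation, the use of strand, any filter on ambiguous alignments and any use of molecular identifiers are not given in the sources used here, so counts of overlapping genes can be shared and PCR copies can count as separate reads. The counts depend little on transcript length.

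Sample titles gave the groups and replicate numbers. The table held 23459 genes in 5 columns, and symbols were assigned to 23308 of them by Entrez identifier. The deposited counts were tested by quasi-likelihood F tests in edgeR 4.0.16, R 4.3.3 (TMM, filterByExpr, robust estimation, group as the only term), with p-values adjusted by Benjamini-Hochberg over the 13616 genes kept. The SE was computed as log2 fold change over root F. CPM used TMM-scaled library sizes over the genes kept. Totals were 3733499, 2455627 and 4393252 counts in NTC and 4988062 and 2766254 in sgJUN#1. Every pair of libraries differed by more than counting noise (chi-square per degree of freedom at least 7.62). Pairs with NTC replicate 3 differed most, at 13.7 to 30.8. The scripts were tested on simulated data. Positions are from GENCODE version 44 mapped to GRCh37.

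The alternatives were DESeq2 1.42.0, limma-voom (limma 3.58.1), upper-quartile scaling, library size alone, no filter, at least 10 counts in every library, counts thinned to the smallest library, the replicate number as a block, and leaving out each library. The members, the gene lists and the tests were chosen with earlier results of these data known. Values by library are given for JUN, for the 8 members with the smallest p-values, for the 4 most abundant receptors and adaptors, and for others where a sentence needs them. Other adhesion genes are named where they passed the threshold or had one of the 2 smallest p-values of their list. No protein sequences are printed, since no protein table was used here.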

Additional observations from a re-analysis of the deposited data

How the results depend on the processing

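Of 463 values of the members under 13 alternatives, 430 kept their direction and their side of the threshold, 32 changed sign and 1 passed the threshold, which was ITGB4 without NTC replicate 2. 23 members kept their sign throughout, among them all 9 whose groups did not overlap. For those 9, leaving out a library could hardly change the sign. Of the 13 that changed sign, ITGA2 had the largest log2 fold change (0.59). The values of opposite sign were 0.0037 for LIMS1 and 0.0064 for BCAR1 with DESeq2, -0.0098 for ENAH with library size alone and -0.0054 without a filter, and 0.0086 for TLN1, -0.049 for ILK, 0.011 for BCAR1 and -0.018 for ENAH with thinned counts. When each library was left out in turn, the log2 fold change ran from -0.21 to 1.12 for ITGA2, -0.043 to 0.28 for ITGA3, -0.18 to 0.74 for ITGB3, -0.22 to 0.085 for TLN1, -0.083 to 0.17 for ILK, -0.080 to 0.040 for LIMS1, -0.14 to 0.13 for BCAR1, -0.0065 to 0.19 for PXN, -0.22 to 0.066 for ZYX, -0.46 to 0.037 for LPP, -0.090 to 0.18 for TES, -0.033 to 0.26 for TRIP6 and -0.025 to 0.045 for ENAH. In these fits the number of members past the threshold was 0 to 1, and that of subunit shares without overlap 5 to 10, where fewer libraries make overlap less likely. With 1 sgJUN#1 library left, that library is assumed to vary like the others.

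Both groups carry the replicate numbers 1 and 2, and the column names of the groups run consecutively within each. The labels do not say whether these are pairs. Differences between replicates 1 and 2 correlated at 0.0146 over genes between the groups. This value cannot exclude pairing, so the block was fitted as an alternative. With the block, 0 of the 36 passed, and LIMS1 (0.042), BCAR1 (0.074), ZYX (0.090) and ENAH (-0.014) changed sign. JUN had 2.82 (edgeR adjusted p-value 1.15e-04). NTC replicate 3 was alone in its block, so this fit took no difference between the groups from it. The log2 fold changes therefore lay close to those without NTC replicate 3, where JUN had 2.84, and the fits are not separate checks. JUN also passed with DESeq2 (3.24, adjusted p-value 7.36e-12), limma-voom (3.47, 0.0342) and thinned counts (3.21, edgeR 0.0257), and ran from 2.84 to 3.68 when each library was left out, where it passed without NTC replicate 2 or 3. The median of the adaptors was 0.0037 with DESeq2, 0.042 with the block, 0.040 without NTC replicate 3 and 0.0063 without sgJUN#1 replicate 1. The number of other adhesion genes past the threshold was 2 without a filter, with ITGB2 added. Over all genes it was 136 with DESeq2, 148 without a filter, 18 with at least 10 counts in every library, 103 with the block and 10 to 57 when each library was left out. The causes were not tested. ITGA10, ITGB3 and ITGB6 were too shallow for some of these fits.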
